A study of Mus musculus with 18 samples.

Results

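The genes of the TGF-beta, BMP and activin pathway were followed through the first 72 h after myocardial infarction in the mouse heart. They were taken by symbol: every row whose name starts with Tgfb, Acvr, Inhba or Inhbb, with Bmp, Gdf or Smad and a number, or with Bmpr, and Ltbp1 to Ltbp4. This gave 55 genes of the 24419 symbols in the expression table. Of these, 42 reached 1 FPKM (sequenced fragments scaled to transcript length and library size) in at least 1 of 18 mice and were tested, against 13333 of all symbols. The other 13 stayed below that level in all mice and are described by level alone.

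All mice were male C57BL/6 animals of 8 weeks, and per the labels all were anaesthetised with sodium pentobarbital. In the infarction groups the proximal left anterior descending coronary artery was ligated, and tissue was taken 10 min, 1 h, 6 h, 24 h or 72 h later. The labels call the tissue heart, and the methods of the study describe infarcted left ventricle. The control mice are titled as controls in the labels and called sham in the study, and are called sham here. There were 3 separate mice in each of 6 groups, so p-values measure the spread between mice. No genotype differed between groups, and polyA RNA was sequenced. Each later group was compared with the same 3 sham mice, so the comparisons with sham are not independent of each other.

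Members of the TGF-beta family are secreted as dimers and bind pairs of type I and type II receptor kinases on the cell surface. TGF-betas and activins act mainly through Smad2 and Smad3, BMPs through Smad1, Smad5 and Smad9, and both routes use Smad4, while Smad6 and Smad7 are inhibitors that the pathway itself induces. TGF-beta is stored in the matrix in a latent form, and in the injured heart the family is best known for the conversion of fibroblasts to matrix-producing myofibroblasts.

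The tissue label was checked against 6 cardiomyocyte markers, whose summed level was 39561 to 41295 FPKM in sham mice. 1 mouse stood apart at 6 h. Bmp10, a ligand made by atrial myocytes, was listed at 0 in 17 mice and at 2.48 FPKM in 6 h mouse 1. The atrial genes Myl7, Sln and Myl4, a list chosen after the values were seen, were at 18.7, 12.5 and 63 FPKM in that mouse, while none of them exceeded 2.89 FPKM in any other mouse. Counts at 6 h, and the values that moved most, are therefore also given without it. The third 24 h mouse was the highest of its group in several induced genes, which widened the errors at 24 h.

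The promoters of the 5 members with the largest rises at 6 h are shown, so that the sequence before their starts can be compared. The stretches are the 250 bases before the start in RefSeq (GRCm38.p6, the mm10 build), read 5′ to 3′ on the gene's strand: chr1:119422249-119422498 (minus) for Inhbb, chr8:70632457-70632706 (minus) for Gdf15, chr14:46390670-46390919 (minus) for Bmp4, chr1:186705990-186706239 (minus) for Tgfb2 and chr13:16011601-16011850 (plus) for Inhba. Capitals mark matches to the motifs searched.
Inhbb: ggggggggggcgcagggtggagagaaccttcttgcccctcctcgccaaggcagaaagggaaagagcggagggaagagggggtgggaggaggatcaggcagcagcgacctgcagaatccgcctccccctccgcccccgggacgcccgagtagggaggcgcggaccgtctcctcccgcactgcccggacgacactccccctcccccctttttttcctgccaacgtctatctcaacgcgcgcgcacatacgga
Gdf15: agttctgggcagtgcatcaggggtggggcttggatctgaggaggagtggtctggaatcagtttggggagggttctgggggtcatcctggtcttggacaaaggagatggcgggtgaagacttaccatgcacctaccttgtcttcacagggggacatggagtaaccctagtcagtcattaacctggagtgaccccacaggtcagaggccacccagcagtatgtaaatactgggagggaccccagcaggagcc
Bmp4: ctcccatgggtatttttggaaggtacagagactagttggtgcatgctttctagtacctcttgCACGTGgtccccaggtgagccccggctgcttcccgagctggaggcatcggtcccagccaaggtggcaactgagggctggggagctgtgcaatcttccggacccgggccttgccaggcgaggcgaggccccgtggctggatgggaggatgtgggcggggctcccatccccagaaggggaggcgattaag
Tgfb2: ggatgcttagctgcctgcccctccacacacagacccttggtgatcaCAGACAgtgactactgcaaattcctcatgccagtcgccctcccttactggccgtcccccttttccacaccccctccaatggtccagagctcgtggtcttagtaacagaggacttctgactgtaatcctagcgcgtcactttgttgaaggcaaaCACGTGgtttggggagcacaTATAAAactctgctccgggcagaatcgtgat
Inhba: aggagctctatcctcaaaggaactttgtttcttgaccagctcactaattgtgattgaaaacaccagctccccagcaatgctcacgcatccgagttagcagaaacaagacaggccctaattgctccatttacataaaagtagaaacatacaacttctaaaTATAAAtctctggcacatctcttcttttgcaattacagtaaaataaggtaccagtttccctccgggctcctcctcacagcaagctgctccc

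The motifs were the Smad palindrome GTCTAGAC, the Smad-binding CAGA box CAGACA, the GC-rich Smad element GGCGCC, AP-1 (TGANTCA), the cAMP response element TGACGTCA, the ATF4 composite site TGATGCAA and a STAT site (TTCCNGGAA), with TATAAA and the E-box CACGTG added after the sequences were seen. Both strands were read. The Tgfb2 stretch held a CAGA box 204 bases before the start, an E-box at 51 and TATAAA at 31. In Bmp4 the E-box lay 188 bases before the start, and in Inhba TATAAA lay at 91. No motif searched matched in the printed stretches of Inhbb or Gdf15. Over the same 250 bases, CAGACA was present in 17.1% of 32851 RefSeq promoter windows and in 3 of the 30 tested members with an entry. Members were counted by gene, with a match before any listed start, and the background by single window. The shares are therefore not like for like, since a gene with several starts has more windows. CACGTG was present in 6.02% of all windows and in 5 of those 30 (in Gdf15 before a second listed start, not in the stretch printed), and TATAAA in 12.4% and in 3. GGCGCC was present in 9.59% of windows and in 9 of the 30, while GTCTAGAC, TGANTCA, TGATGCAA and TTCCNGGAA matched in none of the 30 against 0.167%, 6.75%, 0.791% and 0.913% of windows. TGACGTCA matched in 1 of the 30, Ltbp1, against 1.55% of windows. A match is a run of letters and not a measured binding site.

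Differences were tested with limma on log2(FPKM + 1), and a gene was called when its adjusted p over all genes tested was under 0.05. Log2 fold changes are on this scale, which understates the change of low genes. At 10 min none of the 41 members tested was called by limma, against 0.346% of all genes (0.248% higher and 0.0978% lower). At 1 h only Smad7 was called higher, 2.44% of 41 members against 0.722% of all genes called, 0.669% higher and 0.0526% lower. At 6 h 14 of 42 members were higher and 3 lower, where 28.3% of all genes were called, 11.6% higher and 16.8% lower. At 24 h 14 of 41 were higher and 5 lower, beside 37.6% of all genes called, 26.2% higher and 11.4% lower. At 72 h 26 of 41 were higher and 10 lower, beside 77.3% of all genes called, 53.1% higher and 24.2% lower. The median log2 fold change of the members was 0.10 after 6 h, 0.21 after 24 h and 0.69 after 72 h, and that of all genes tested was -0.08, 0.13 and 0.29.

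**Figure D1:**
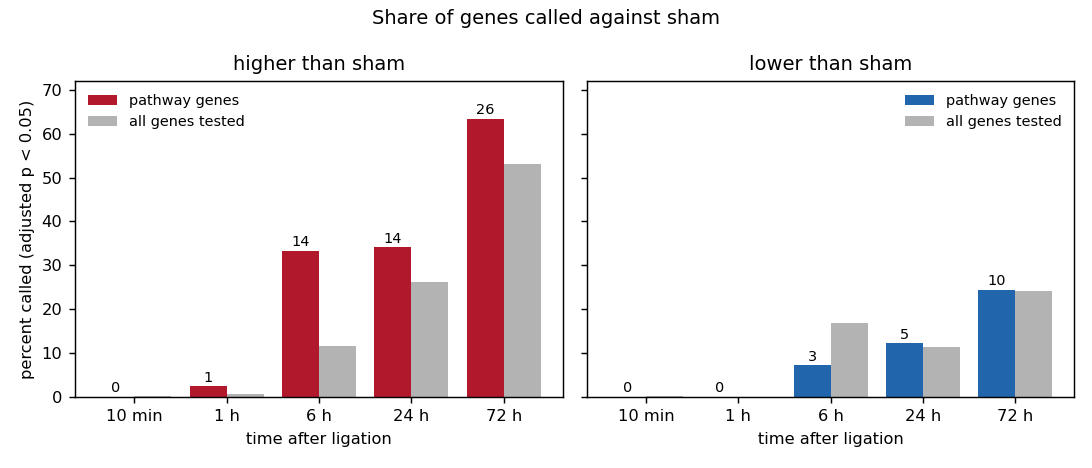
Percent of genes called against sham at an adjusted p under 0.05, for the pathway genes (coloured bars, with the number of genes above each) and for all genes tested (grey bars), by time after ligation. At 6 h, 14 pathway genes were higher, 33.3% of those tested, beside 11.6% of all genes, while at 72 h the share lower than sham was close to that of all genes.

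The counts rested partly on single mice. Without 6 h mouse 1, 12 members were higher and 4 lower at 6 h. Inhbb (3.85), Gdf15 (2.22), Bmp4 (1.01), Tgfb2 (1.00), Smad7 (0.98) and Smad1 (0.80) were still called without it, Bmp2 and Bmpr2 were not, and Ltbp3 was then called lower (-0.39). Leaving out any 1 of the 3 sham mice left 9 higher at 6 h, and at 24 h left 6 (without mouse 1 or 2) or 7 (without mouse 3) higher and 2, 1 and 2 lower. At 72 h the number lower fell to 6 without sham mouse 3 or 72 h mouse 3. The share of all genes called was not taken for these fits with a mouse left out. The fall in these counts can therefore not be read as particular to the pathway genes. The scaling of the table also bore on direction: the median of all genes at 72 h was 0.03 after median-of-ratios scaling and -0.10 after quantile normalization, and 22 members were then higher and 13 lower, or 20 and 14. Among all genes called at 72 h, 68.7% were higher as deposited, 52.1% after median-of-ratios scaling and 43.4% after quantile normalization. The same shares were 69.8%, 50.3% and 45.2% at 24 h, where either scaling gave 11 members higher and 6 lower. At 6 h 40.9% of called genes were higher as deposited and 54.8% after median-of-ratios scaling, with 15 members higher and 3 lower.

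**Figure D2:**
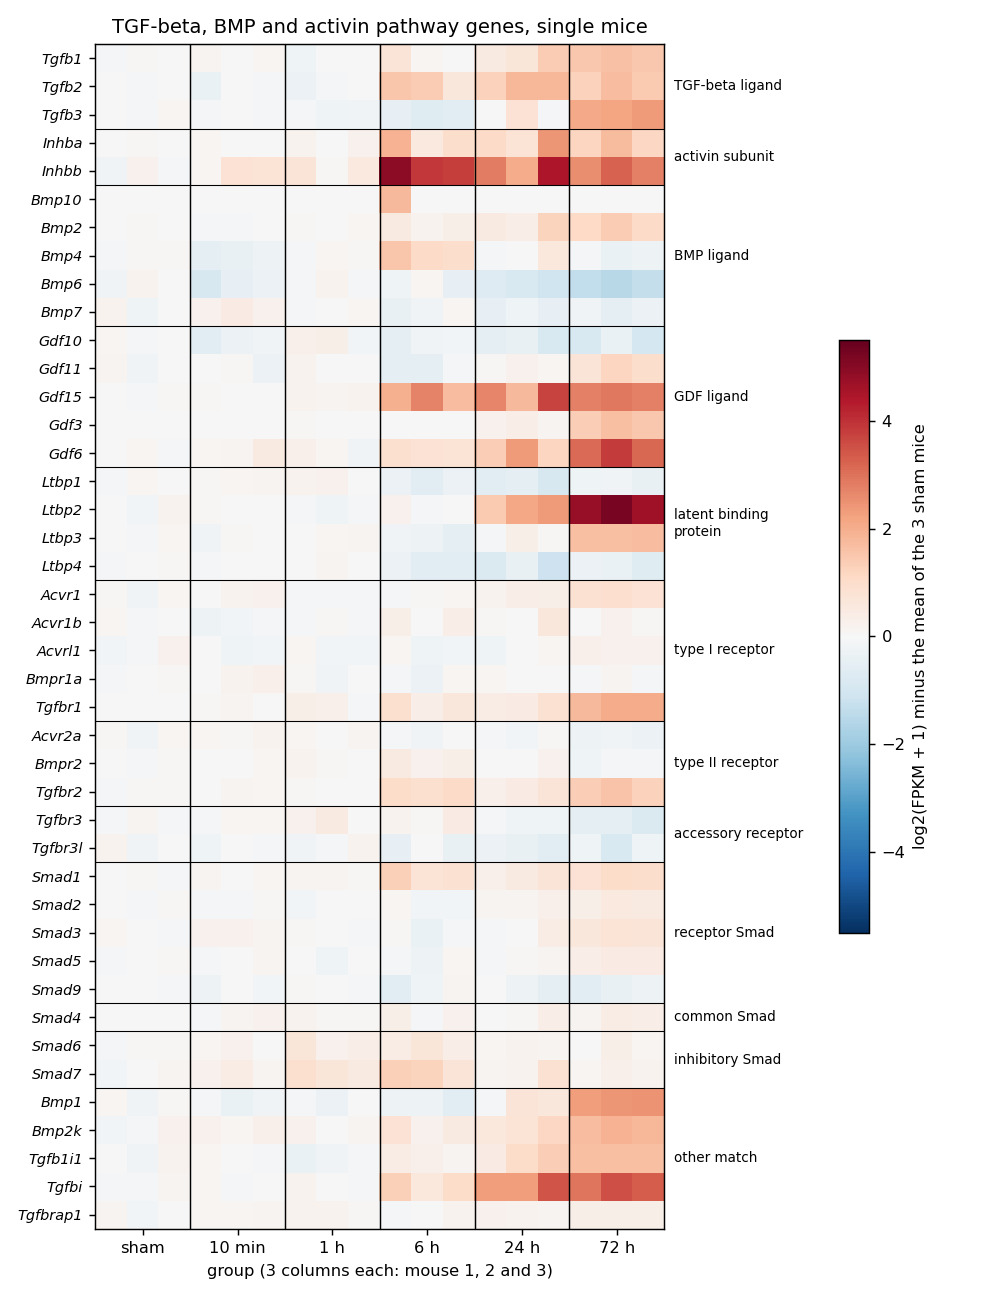
Heat map of the 42 tested members (rows, grouped by role) in single mice (columns, 3 per group), as log2(FPKM + 1) minus the mean of the 3 sham mice. Inhbb was raised in all 6 h mice, Ltbp2 in all 72 h mice, and Bmp10 in 1 mouse at 6 h.

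The first member to be called was Smad7, an inhibitory Smad that blocks type I receptors and is itself a target of the pathway. Smad7 was at 21.2, 24 and 26.3 FPKM in sham mice, at 28.4, 31.6 and 26.4 at 10 min and at 44.2, 38.8 and 34.2 after 1 h. All 1 h mice were above all sham mice. The rise at 1 h was 1.64-fold (log2 change 0.69, SE 0.11, limma adjusted p = 0.0419). This call was lost without any 1 sham mouse, without 1 h mouse 1 or without 1 h mouse 2 (log2 change 0.60 to 0.76). At 6 h Smad7 reached 60.9, 57.1 and 39.7 FPKM (log2 change 1.09, SE 0.17, adjusted p = 0.00457), and the groups did not overlap. By 72 h the 3 mice lay at 25.8, 29.3 and 27 FPKM, and the direct comparison of 72 h with 6 h gave -0.90 (SE 0.16, adjusted p = 0.00134). Smad6, the inhibitor that acts mainly on the BMP branch, was at 3.92, 4.46 and 4.51 FPKM in sham mice, 7.5, 5.3 and 5.77 after 1 h and 5.97, 7.34 and 5.75 after 6 h. At both times every mouse was above sham, but the adjusted p was 0.239 after 1 h and 0.0232 after 6 h (log2 change 0.47, SE 0.11). The 6 h call of Smad6 was lost without any 1 sham mouse (0.42 to 0.50).

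Of the activin subunits, Inhbb had the largest log2 change of any member at 6 h. Inhbb and Inhba encode the beta chains whose dimers are activin B and activin A, and which form inhibins with the alpha chain. Inhbb (chr1:119415465-119422248, mm10) was at 1.18, 1.86 and 1.38 FPKM in sham mice and at 74.2, 35.7 and 33.1 after 6 h. Every 6 h mouse was far above every sham mouse, a 32.4-fold difference of means (log2 change 4.21, SE 0.29, limma adjusted p = 0.000353). At 24 h its levels were 16.3, 9.12 and 51.9 FPKM (log2 change 3.10, SE 0.54, adjusted p = 0.00836) and at 72 h 13.5, 22.1 and 16 (2.86, SE 0.17, adjusted p = 1.16e-06). The third 24 h mouse alone overlapped the 6 h range. Between 6 h and 72 h Inhbb fell by 1.35 on the log2 scale (SE 0.30, adjusted p = 0.00453), with no overlap.

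Inhba (chr13:16011851-16031621) was near the floor in sham mice, at 0.0761, 0.134 and 0.0663 FPKM. It was at 3.15, 0.561 and 1.16 FPKM at 6 h, 1.27, 0.838 and 4.94 after 24 h and 1.47, 2.67 and 1.41 after 72 h. All 9 of these mice were above all sham mice, but they differed widely among themselves. The log2 fold changes were 1.14 (SE 0.31, adjusted p = 0.0336), 1.42 (SE 0.40, adjusted p = 0.0323) and 1.35 (SE 0.16, adjusted p = 6.44e-05). Without any 1 sham mouse the calls of Inhba at 6 h (1.13 to 1.17) and 24 h (1.40 to 1.44) were lost, and that at 6 h was lost also without 6 h mouse 3 (1.22). Without 6 h mouse 1 the 6 h value of Inhba was 0.75, still called, and with a pseudocount of 0.1 it was 2.88. The antagonists that bind activins, named after their values were seen, were also called. Fstl3 rose from a mean of 1.57 to 9.17 FPKM at 6 h and 21.7 after 24 h (log2 change 3.13, SE 0.13, adjusted p = 0.000173), and Fst, from 0.0507 to 0.887 FPKM after 6 h (0.83, SE 0.13, adjusted p = 0.00563). Inha, the inhibin alpha chain, fell from a mean of 4.25 to 2.61 FPKM after 72 h (-0.57, SE 0.19, adjusted p = 0.0233). The calls of Fstl3, Fst and Inha were not examined with a mouse left out or with another scaling.

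The 3 TGF-beta ligands were first called higher at different times. Tgfb2 (chr1:186622792-186705989) was first: it was at 4.08, 3.9 and 4.18 FPKM in sham mice, 13.7, 12.2 and 6.69 after 6 h, 11, 16.8 and 16.8 after 24 h and 11.1, 15.6 and 12.5 after 72 h. From 6 h on every mouse was above sham, with log2 fold changes of 1.18 (SE 0.23, limma adjusted p = 0.0105), 1.63 (SE 0.17, adjusted p = 0.00233) and 1.47 (SE 0.11, adjusted p = 5.04e-06). Tgfb1 (chr7:25687002-25705077), the most studied isoform in fibrosis, was at 7.49, 8.44 and 8.29 FPKM in sham mice and overlapped them at 6 h (13.6, 8.79 and 7.83; adjusted p = 0.321). It reached 11.9, 13.4 and 22.8 FPKM after 24 h (log2 change 0.86, SE 0.22, adjusted p = 0.0248) and 24.3, 26.9 and 24.7 after 72 h (1.54, SE 0.075, adjusted p = 3.31e-07). The 24 h call of Tgfb1 was lost without any 1 sham mouse (0.81 to 0.89).

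Tgfb3 (chr12:86056745-86079041) moved down before it moved up. Its levels were 5.28, 5.2 and 5.83 FPKM in sham mice, 3.67, 3.04 and 3.31 after 6 h, 5.33, 10 and 5.22 after 24 h and 26.5, 28.3 and 31.8 after 72 h. The 6 h mice lay below all sham mice and the 72 h mice above them. The log2 fold change was -0.57 after 6 h (SE 0.10, adjusted p = 0.0077) and 2.21 after 72 h (SE 0.085, adjusted p = 9.77e-08), and 72 h against 6 h gave 2.78 (SE 0.11, adjusted p = 6.68e-07). In levels per length at 72 h, Tgfb3 and Tgfb1 had means of 28.9 ± 2.73 and 25.3 ± 1.43 FPKM and Tgfb2 13.1 ± 2.31 (SD, n = 3 each). The annotated span of Tgfb3 overlaps Ttll5 on the other strand, whose mean was 1.69 FPKM in sham mice, 0.977 after 6 h and 2.17 after 72 h. Whether counting used the strand is not given in the sources used here, so reads of the overlap cannot be told apart.

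**Figure D3:**
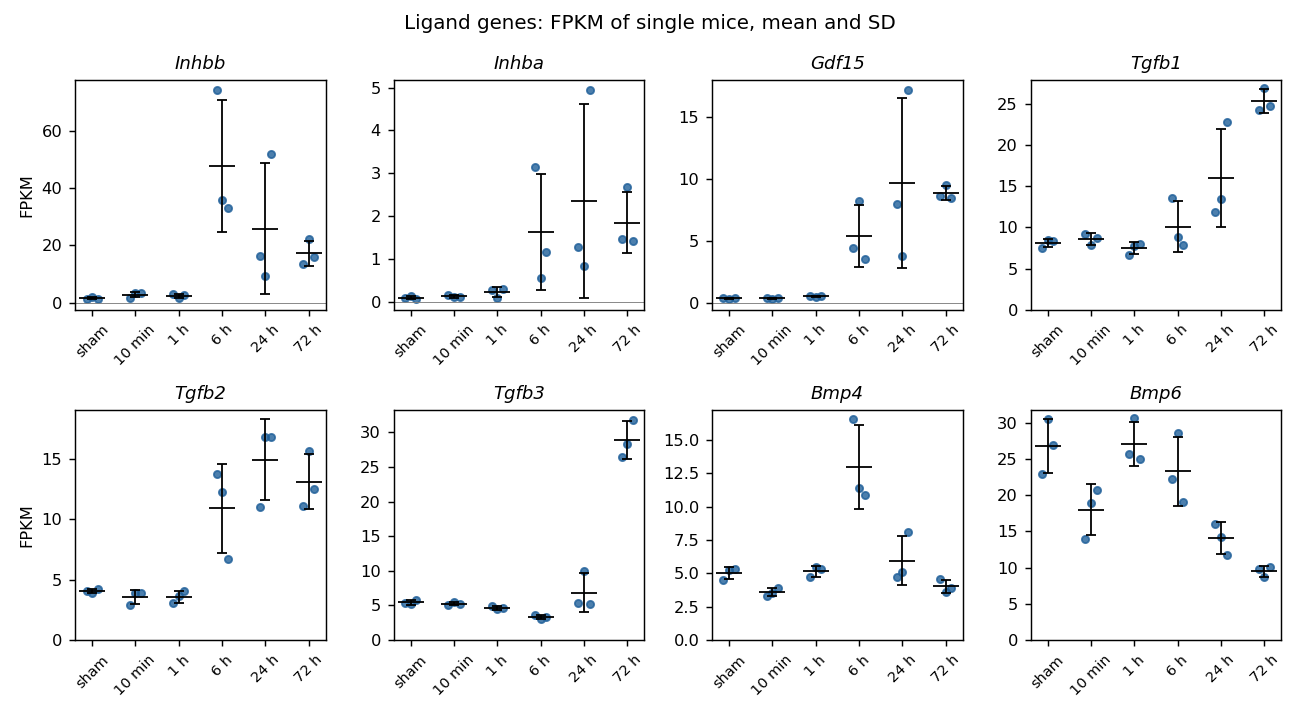
FPKM of 8 ligand genes in single mice (points), with the group mean (horizontal mark) and SD (error bar), n = 3 per group, each panel with its own linear axis. Inhbb and Bmp4 were highest at 6 h by mean, Tgfb1 and Tgfb3 after 72 h, and Bmp6 was lowest at 72 h.

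Among BMP ligands, 5 of 10 reached 1 FPKM, and these did not move together. Bmp4 (chr14:46383520-46390669) was at 4.54, 5.27 and 5.3 FPKM in sham mice and at 16.6, 11.4 and 10.9 after 6 h, a 2.57-fold difference with no overlap (log2 change 1.19, SE 0.16, limma adjusted p = 0.00308). At 10 min Bmp4 was at 3.29, 3.56 and 3.9 FPKM, below all sham mice without being called (-0.40, SE 0.091, limma adjusted p = 0.127). At 24 h it was at 4.7, 5.1 and 8.07 FPKM, which overlapped sham. At 72 h it was at 4.56, 3.62 and 3.93 FPKM, and the value against sham was -0.26 (SE 0.10, adjusted p = 0.0349) with 1 mouse inside the sham range. This last call was lost without sham mouse 2 or 3 or 72 h mouse 2 or 3 (-0.20 to -0.25). Between 72 h and 6 h Bmp4 differed by -1.45 (SE 0.16, adjusted p = 0.000106).

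Bmp6 (chr13:38345107-38500302), an endothelial ligand known for iron control, went the other way. It was at 22.9, 30.5 and 27 FPKM in sham mice, 22.2, 28.6 and 19.1 after 6 h, 16.1, 14.3 and 11.8 after 24 h and 9.88, 8.65 and 10.1 after 72 h. Its 10 min mice, at 14, 19 and 20.8 FPKM, lay below all sham mice without being called (-0.56, SE 0.15, limma adjusted p = 0.18). At 1 h it was at 25.7, 30.7 and 25 FPKM. The 24 h and 72 h mice were below all sham mice, by -0.88 (SE 0.15, adjusted p = 0.0072) and -1.39 (SE 0.11, adjusted p = 4.8e-06) on the log2 scale. Bmp6 overlaps Txndc5 on the other strand, whose mean rose from 12.8 to 65.9 FPKM at 72 h. Bmp2, at 0.358, 0.436 and 0.367 FPKM in sham mice, was at 0.973, 0.584 and 0.749 after 6 h, 0.969, 0.772 and 2.21 after 24 h and 1.92, 2.68 and 1.88 after 72 h, above sham in all 9 mice. Its log2 fold changes were 0.35 (SE 0.10, adjusted p = 0.0405), 0.69 (SE 0.22, adjusted p = 0.0443) and 1.18 (SE 0.11, adjusted p = 1.75e-05). The 6 h call of Bmp2 was lost without any 1 sham mouse or without 6 h mouse 1 or 3 (0.26 to 0.37), and the 24 h call without any 1 sham mouse or 24 h mouse 1 (0.68 to 0.78), and under median-of-ratios scaling (0.62) or quantile normalization (0.54). Bmp7 fell from a mean of 0.705 to 0.344 FPKM after 72 h (-0.34, SE 0.13, adjusted p = 0.0406), where the groups overlapped, and this call was lost without sham mouse 1 or 3 or 72 h mouse 2 or 3 (-0.24 to -0.35). Bmp10, with its 1 non-zero mouse, was not called at 6 h (adjusted p = 0.335).

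Of the GDF ligands, 5 of 10 reached 1 FPKM. Gdf15 (chr8:70629393-70632456), a distant family member induced by cell stress that signals through a receptor in the hindbrain, was at 0.423, 0.323 and 0.454 FPKM in sham mice. It was at 0.604, 0.545 and 0.607 FPKM at 1 h, above all sham mice without being called (adjusted p = 0.346). Later it was at 4.48, 8.24 and 3.57 FPKM at 6 h, 8.02, 3.8 and 17.2 after 24 h and 8.65, 9.54 and 8.48 after 72 h. All of these mice were above sham, with log2 fold changes of 2.13 (SE 0.24, limma adjusted p = 0.00173), 2.72 (SE 0.43, adjusted p = 0.00651) and 2.82 (SE 0.085, adjusted p = 3.11e-08). Gdf6 (chr4:9844372-9862345), a ligand best known from skeletal and eye patterning, was at 0.943, 1.14 and 0.91 FPKM in sham mice, 2.62, 2.46 and 2.4 after 6 h, 4.11, 9.25 and 3.57 after 24 h and 16.4, 27.3 and 16.8 after 72 h. Each later group lay above sham without overlap, by 0.81 (SE 0.091, adjusted p = 0.00173), 1.64 (SE 0.29, adjusted p = 0.00869) and 3.37 (SE 0.18, adjusted p = 5.01e-07).

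Gdf3 was listed at 0 in all sham mice and at 1.56, 2.12 and 1.83 FPKM after 72 h (adjusted p = 1.75e-06). At 24 h Gdf3 was at 0.192, 0.293 and 0.0936 FPKM and was not called. Gdf11, which is closely related to myostatin, was at 2.03, 1.41 and 1.79 FPKM in sham mice and 3.48, 5.15 and 4.26 after 72 h (log2 change 0.94, SE 0.14, adjusted p = 0.000222). Gdf10, also called BMP3b, was at 3.5, 3.07 and 3.13 FPKM in sham mice, 2.02, 2.22 and 1.4 after 24 h and 1.36, 2.28 and 1.15 after 72 h. It was the only GDF gene called lower at these times, by -0.57 after 24 h (SE 0.14, adjusted p = 0.0197) and -0.73 after 72 h (SE 0.15, adjusted p = 0.00204), and the 24 h call was lost without any 1 sham mouse (-0.52 to -0.59).

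By 72 h the latent TGF-beta binding proteins had split into a pair above sham and a pair below it. Ltbp2 (chr12:84783212-84876532), an elastic fibre protein that does not itself carry latent TGF-beta, was at 0.595, 0.429 and 0.83 FPKM in sham mice and 0.896, 0.495 and 0.593 after 6 h. It rose to 3.31, 6.06 and 7.14 FPKM after 24 h (log2 change 1.96, SE 0.24, limma adjusted p = 0.00374). At 72 h it was at 43.5, 59.1 and 39.7 FPKM, a 76.8-fold difference of means (4.89, SE 0.15, adjusted p = 3.49e-08), the largest log2 fold change of any member against sham. Ltbp3 (chr19:5740904-5758532), which anchors latent TGF-beta, was at 26.3, 25 and 28.2 FPKM in sham mice, 25.6, 32.9 and 27.8 after 24 h and 85.7, 84.6 and 87.7 after 72 h (1.66, SE 0.065, adjusted p = 1.05e-07). Only its 72 h mice stood clear above sham. Its 6 h mice, at 23, 21.9 and 18.3 FPKM, lay below all sham mice without being called (-0.32, SE 0.10, adjusted p = 0.0537).

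Ltbp4 (chr7:27305136-27337692) was by far the most abundant member per length. It was at 1201, 1238 and 1322 FPKM in sham mice, 998, 842 and 835 after 6 h, 723, 957 and 561 after 24 h and 1015, 965 and 779 after 72 h. Every mouse from 6 h on was below all sham mice, by -0.50 (SE 0.091, adjusted p = 0.00889), -0.78 (SE 0.19, adjusted p = 0.0203) and -0.45 (SE 0.12, adjusted p = 0.00626). Ltbp1 (chr17:75005568-75392512) was at 13.8, 15.6 and 14.4 FPKM in sham mice, 11.4, 9.11 and 11.3 after 6 h, 9, 10.2 and 7.38 after 24 h and 12.3, 12.6 and 10.6 after 72 h. It was lower at all 3 times (-0.43, SE 0.11, adjusted p = 0.0247; -0.67, SE 0.13, adjusted p = 0.00997; -0.29, SE 0.086, adjusted p = 0.0144). The Ltbp4 call at 24 h was lost without any 1 sham mouse (-0.74 to -0.81). The Ltbp1 calls were lost without any 1 sham mouse at 6 h (-0.39 to -0.47), without sham mouse 2 after 24 h (-0.63) and without sham mouse 2 or 72 h mouse 3 after 72 h (-0.21 to -0.24).

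The signalling receptor kinases of TGF-beta rose. Tgfbr2 (chr9:116084293-116175360), the type II kinase, was at 67.8, 76.3 and 75.8 FPKM in sham mice, 148, 135 and 154 after 6 h, 88.9, 99.1 and 121 after 24 h and 187, 221 and 179 after 72 h. All mice from 6 h on were above sham, by 0.98 (SE 0.083, limma adjusted p = 0.000638), 0.48 (SE 0.13, adjusted p = 0.026) and 1.40 (SE 0.094, adjusted p = 2.05e-06). Its 24 h mice lay below the 6 h and 72 h mice without overlap. Tgfbr1 (chr4:47353222-47414931), its type I partner, was at 3.29, 3.34 and 3.28 FPKM in sham mice, 7.02, 4.59 and 5.68 after 6 h, 4.78, 4.91 and 6.77 after 24 h and 13.9, 16.6 and 16.6 after 72 h. The log2 fold changes were 0.64 (SE 0.14, adjusted p = 0.0158), 0.58 (SE 0.13, adjusted p = 0.0181) and 1.95 (SE 0.086, adjusted p = 1.87e-07), with every mouse above sham. Without any 1 sham mouse the calls were lost for Tgfbr1 after 6 h (0.63 to 0.64) and 24 h (0.57 to 0.59) and for Tgfbr2 after 24 h (0.42 to 0.51, also without 24 h mouse 2, and with median-of-ratios scaling, 0.32, or quantile normalization, 0.36).

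Betaglycan, the co-receptor encoded by Tgfbr3 (chr5:107106570-107289629), fell instead. Tgfbr3 was at 9.47, 11.4 and 9.86 FPKM in sham mice, 11.7, 10.9 and 14.3 after 6 h and 6.8, 6.63 and 5.39 after 72 h. Only the 72 h mice stood below sham (-0.63, SE 0.10, adjusted p = 0.000524), and they stood below the 6 h mice too (-0.87, SE 0.13, adjusted p = 0.000585). The related Tgfbr3l was at 1.46, 0.905 and 1.11 FPKM in sham mice, 0.699, 0.6 and 0.44 after 24 h (-0.45, SE 0.13, adjusted p = 0.0346) and 0.814, 0.213 and 0.84 after 72 h (-0.43, SE 0.17, adjusted p = 0.0494). The Tgfbr3l calls were lost without any 1 sham mouse or 24 h mouse 2 or 3 after 24 h (-0.35 to -0.53), and without sham mouse 1 or 3 or 72 h mouse 2 after 72 h (-0.23 to -0.44).

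BMP and activin receptors changed less. Bmpr2, the type II receptor of BMPs, was at 22.8, 22.6 and 24.9 FPKM in sham mice, 33.6, 27.6 and 29.4 after 6 h and 19.9, 21.4 and 21.5 after 72 h. Its 6 h mice were all above sham (log2 change 0.35, SE 0.10, limma adjusted p = 0.0324), a call lost without any 1 sham mouse or without 6 h mouse 1 (0.27 to 0.39), and its 72 h mice were lower than its 6 h mice (-0.50, SE 0.10, adjusted p = 0.00275). Acvrl1, the endothelial type I receptor ALK1, was at 37, 40 and 48.6 FPKM in sham mice and at 50.6, 49.3 and 49.6 after 72 h (0.26, SE 0.10, adjusted p = 0.0373). This direction turned with median-of-ratios scaling (-0.06), and the call was lost without sham mouse 1 or 2 or any 1 of the 72 h mice (0.17 to 0.26). Acvr1 (ALK2) rose from a mean of 6.57 ± 0.871 to 12.6 ± 0.714 FPKM after 72 h (SD, n = 3; 0.85, SE 0.10, adjusted p = 5.85e-05). Acvr2a fell from 9.61 ± 1.13 to 7.79 ± 0.446 FPKM (-0.27, SE 0.094, adjusted p = 0.0292), a call lost without sham mouse 1 or 3 or 72 h mouse 1 or 3 (-0.22 to -0.25). Bmpr1a (ALK3) and Acvr1b (ALK4) were not called at any time against sham, with 95% intervals at 72 h of -0.23 to 0.19 and -0.12 to 0.28. After median-of-ratios scaling both were called lower at 72 h (-0.32 and -0.22).

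**Figure D4:**
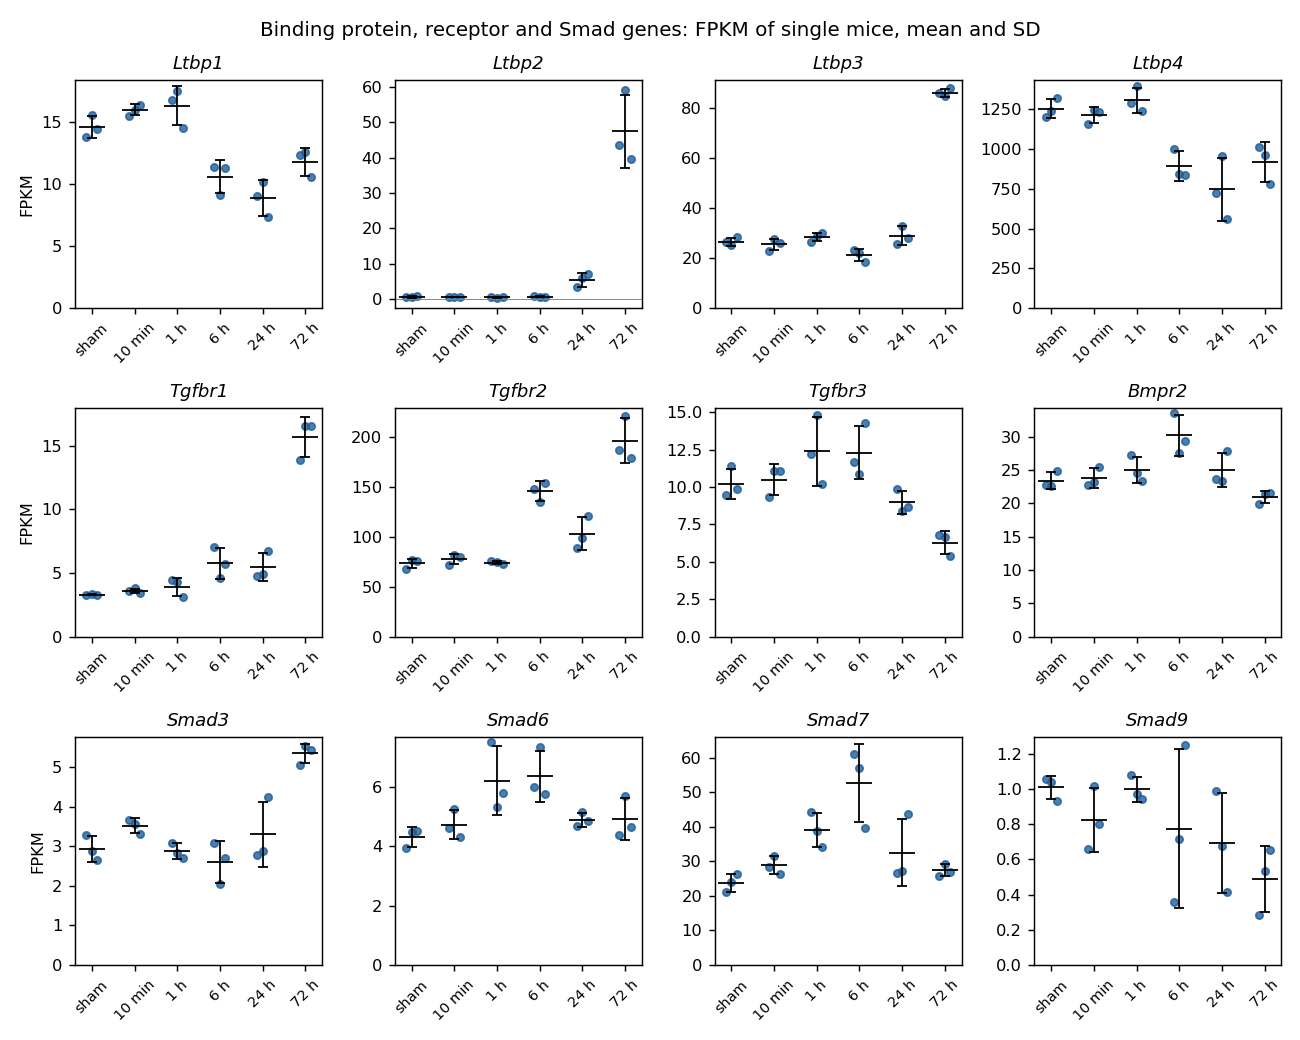
FPKM of 12 genes for binding proteins, receptors and Smads in single mice (points), with the group mean (horizontal mark) and SD (error bar), n = 3 per group, each panel with its own linear axis starting at or just below 0. Ltbp2, Ltbp3, Tgfbr1 and Smad3 were highest at 72 h, Smad7 had its highest mean at 6 h, and Ltbp4 lay below sham from 6 h on.

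Of the 5 receptor-activated Smads, Smad1 was called from 6 h on and the other 4 at 72 h alone among the comparisons with sham. Smad3 (chr9:63646767-63757994) was at 3.28, 2.88 and 2.64 FPKM in sham mice, 3.08, 2.04 and 2.7 after 6 h and 5.06, 5.52 and 5.44 after 72 h. The 72 h mice were above all sham mice, and no other time was called (log2 change 0.69, SE 0.087, limma adjusted p = 0.000102). Smad2 was at 7.91, 7.66 and 8.23 FPKM in sham mice and 10.2, 12.1 and 11.7 after 72 h (0.46, SE 0.081, adjusted p = 0.000733). Smad1, of the BMP branch, was already higher at 6 h, with 3.63, 3.81 and 3.35 FPKM in sham mice, 10.4, 6.69 and 7.32 after 6 h, 4.5, 5.54 and 6.48 after 24 h and 7.04, 8.2 and 8.08 after 72 h. Its mice at these times were all above sham, by 0.97 (SE 0.16, adjusted p = 0.00558), 0.49 (SE 0.13, adjusted p = 0.0281) and 0.93 (SE 0.086, adjusted p = 1.41e-05), and the 24 h call was lost without any 1 sham mouse or 24 h mouse 2 (0.45 to 0.53), and under median-of-ratios scaling (0.36) or quantile normalization (0.27).

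Smad5, its close relative, rose from a mean of 12.1 ± 0.567 to 16.6 ± 0.817 FPKM after 72 h (SD, n = 3; log2 change 0.42, SE 0.07, adjusted p = 0.000552). Smad9, the third Smad of the BMP branch, was low and fell: it was at 1.06, 1.04 and 0.935 FPKM in sham mice and 0.287, 0.533 and 0.651 after 72 h, with no overlap (-0.44, SE 0.11, adjusted p = 0.0058). Smad4, the shared partner, was at 15.5, 15.3 and 15.4 FPKM in sham mice and 17.1, 20.9 and 20.2 after 72 h (0.31, SE 0.083, adjusted p = 0.00817). The rises of Smad4 and Smad5 after 72 h stood beside a median of 0.29 over all genes. With median-of-ratios scaling they were 0.01 and 0.12 and neither was called, and with quantile normalization Smad4 turned to -0.03. Smad2 and Smad3 kept their call at 72 h with median-of-ratios scaling and lost it with quantile normalization (0.05 and 0.18).

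**Figure D5:**
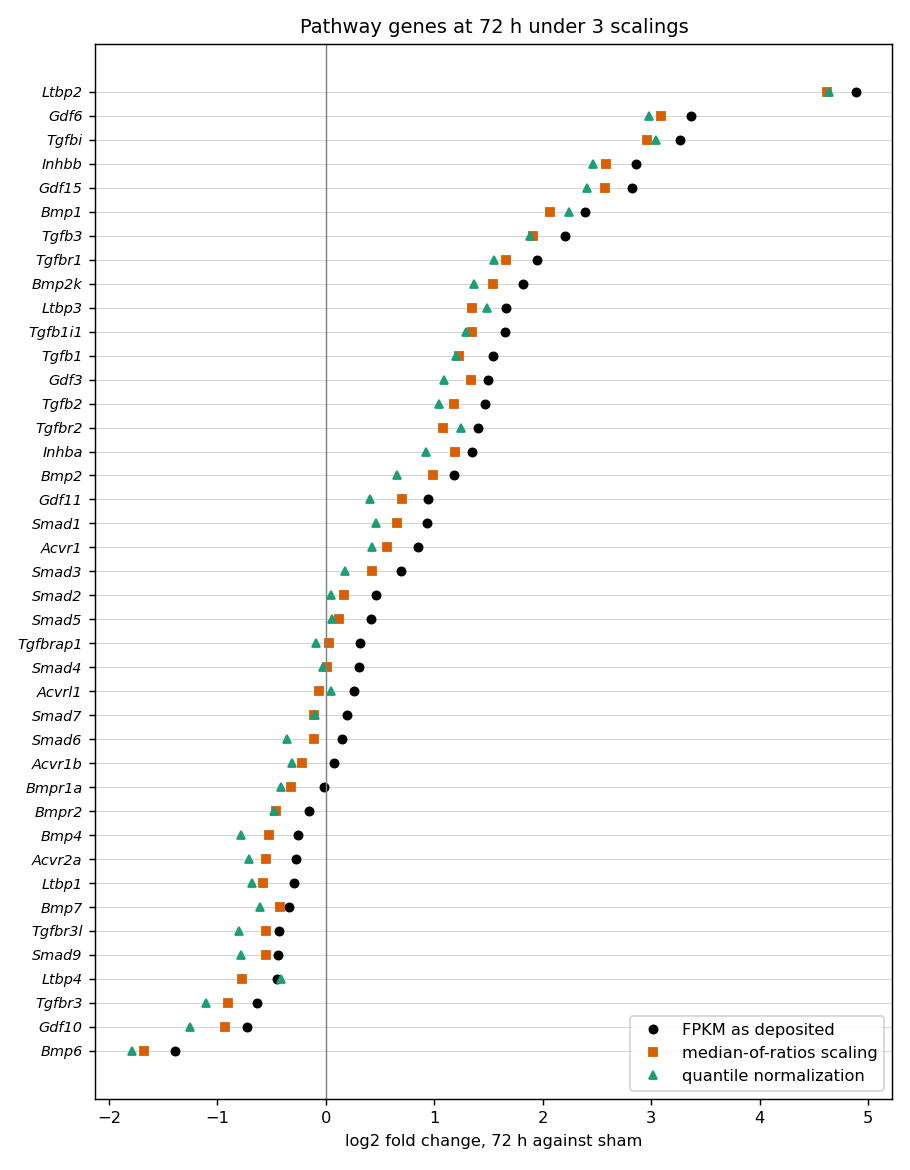
Log2 fold change at 72 h against sham of the 41 members tested, as deposited (circles), after median-of-ratios scaling (squares) and after quantile normalization (triangles). Members from Ltbp2 to Smad3 in this order stayed above 0 under all 3, while those near 0, such as Smad4, Acvrl1, Smad6 and Acvr1b, changed sign.

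The symbol rule also took in 5 genes that are neither ligands, receptors nor Smads. Tgfbi (chr13:56609523-56639562), an extracellular matrix protein named for its induction by TGF-beta, was at 5.12, 5.25 and 6.35 FPKM in sham mice, 15.3, 8.78 and 12 after 6 h, 31.2, 30.9 and 71.1 after 24 h and 48.9, 75.4 and 65 after 72 h. All mice from 6 h on were above sham, by 0.96 (SE 0.19, limma adjusted p = 0.0105), 2.68 (SE 0.31, adjusted p = 0.00302) and 3.27 (SE 0.15, adjusted p = 2.32e-07). Bmp1 (chr14:70474558-70520234), a metalloprotease that trims procollagen and not a ligand, was at 44.3, 35.9 and 42.1 FPKM in sham mice, 33, 33.4 and 26.2 after 6 h and 202, 221 and 228 after 72 h (2.39, SE 0.091, adjusted p = 9.46e-08). Its 6 h mice lay below sham without being called (adjusted p = 0.0503), and 72 h against 24 h gave 1.96 (SE 0.20, adjusted p = 0.000356). Tgfb1i1, the focal adhesion protein Hic-5, was called at 24 h and 72 h (0.93, SE 0.23, adjusted p = 0.0216, and 1.65, SE 0.10, adjusted p = 9.81e-07). Bmp2k, a kinase, was called at the same times (0.83, SE 0.18, adjusted p = 0.014, and 1.82, SE 0.11, adjusted p = 1.2e-06). The 24 h calls were lost without any 1 sham mouse or 24 h mouse 2 for Tgfb1i1 (0.84 to 1.03) and without sham mouse 1 or 2 for Bmp2k (0.76 to 0.78). Tgfbrap1, a receptor-associated protein, was called only at 72 h (0.32, SE 0.085, adjusted p = 0.00801), and that call was lost with median-of-ratios scaling (0.03).

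The late time was also compared directly with the earlier ones. Between 72 h and 6 h 21 of 42 members were higher and 6 lower, where 67.1% of all genes were called, 50.3% higher and 16.7% lower, and the medians were 0.29 over the members and 0.33 over all genes. The share of members higher was thus that of all genes. The 6 lower were Bmp4, Inhbb, Smad7 and Bmpr2, which had been called higher than sham at 6 h, and Bmp6 and Tgfbr3, which had not, and the largest rises were Ltbp2 (4.85, SE 0.17, limma adjusted p = 4.02e-07), Tgfb3, Bmp1 (2.78, SE 0.12, adjusted p = 8.71e-07), Gdf6 (2.56, SE 0.19, adjusted p = 9.85e-06) and Tgfbi (2.31, SE 0.21, adjusted p = 3.59e-05). Of all genes called there 75.1% were higher as deposited, 51.4% after median-of-ratios scaling, which gave 15 members higher and 10 lower, and 45.6% after quantile normalization, which gave 13 and 15. Between 72 h and 24 h 16 of 41 members were higher and 2, Bmp6 and Tgfbr3, lower, where 43.2% of all genes were called, 29.7% higher and 13.5% lower. Of all genes called there 68.8% were higher as deposited, 54% after median-of-ratios scaling and 45.6% after quantile normalization, and 12 members were higher and 5 lower under either. Inhbb, Inhba, Gdf15 and Tgfb2 were not called between 72 h and 24 h, with 95% intervals of -1.51 to 1.04, -1.05 to 0.92, -0.89 to 1.08 and -0.61 to 0.29. The call of Bmp6 between 72 h and 24 h was lost without 24 h mouse 1 or 2 or 72 h mouse 2 or 3 (-0.41 to -0.55), and that of Tgfbr3 without 24 h mouse 1 or 72 h mouse 3 (-0.37 to -0.40). Among the rises, the calls of Tgfb1 and Smad1 were lost in 8 of 15 alternative fits. Those of Tgfb1i1 and Smad5 were lost in 6 and that of Smad3 in 5, while the other rises kept their call.

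Extracellular antagonists, co-receptors and activators of the pathway formed a second list of 39 genes, of which 38 were in the table and 26 were tested. After 6 h, 6 of these rose and 4 fell, after 24 h 10 rose and 6 fell, and after 72 h 19 rose and 5 fell. The share called was 38.5%, 61.5% and 92.3%, beside 28.3%, 37.6% and 77.3% of all genes, and the median at 72 h was 0.77 beside 0.29. Thrombospondin 1 (Thbs1), which can release active TGF-beta, was at 2.34, 2.23 and 3.03 FPKM in sham mice, 11.2, 11.3 and 15.8 after 1 h, 219, 71.8 and 90 after 6 h and 95.2, 150.3 and 113 after 72 h. It was above sham at 1 h already (log2 change 1.95, SE 0.15, limma adjusted p = 0.000653), as it was at 72 h (5.07, SE 0.16, adjusted p = 3.64e-08). The follistatin-like protein Fstl1 rose from a mean of 52.8 to 660.2 FPKM after 72 h (3.63, SE 0.11, adjusted p = 3.17e-08). Fibrillin 1 (Fbn1), to which latent complexes bind, rose from 6.43 to 74.6 FPKM (3.33, SE 0.15, adjusted p = 2.27e-07). The BMP co-receptor Rgma fell from 24.4 to 16 FPKM (-0.59, SE 0.093, adjusted p = 0.000427). Genes of this list and of the lists that follow were not examined with a mouse left out or with another scaling.

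Intracellular regulators numbered 14, all tested. By 6 h 4 rose and 1 fell, by 24 h 6 rose and none fell, and by 72 h 8 rose and 2 fell. The share called was 35.7% at 6 h and 42.9% at 24 h, near the 28.3% and 37.6% of all genes. At 72 h 71.4% were called and 57.1% higher, close to the 77.3% and 53.1% of all genes, with a median of 0.54 beside 0.29. The largest rises at 72 h were in Tgif1 (2.41, SE 0.10, limma adjusted p = 1.52e-07), Pmepa1 (1.76, SE 0.077, adjusted p = 1.92e-07) and Skil (1.48, SE 0.12, adjusted p = 5.56e-06), all of which restrain Smad signalling. Zfyve9, which presents Smad2 and Smad3 to the receptor, and the phosphatase Ppm1a fell (-0.58, SE 0.077, adjusted p = 0.000145, and -0.33, SE 0.073, adjusted p = 0.00298).

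Target genes of the TGF-beta and BMP branches were counted separately. Of 13 tested genes known to be induced by TGF-beta, 1 was called higher at 10 min and 2 at 1 h. By 6 h 5 rose and 3 fell, by 24 h 9 rose, and by 72 h all 13 rose. The share called was 7.69% at 10 min, 15.4% at 1 h, 61.5% at 6 h and 69.2% at 24 h. Of all genes 0.346%, 0.722%, 28.3% and 37.6% were called at these times. At 72 h 53.1% of all genes were higher, and the median of the list was 4.96 beside 0.29 over all genes. Ctgf, which encodes a secreted matrix-associated protein and was named after its values were seen, was at 29.8, 25.6 and 27.9 FPKM in sham mice and 60.9, 83.7 and 80.3 after 1 h (1.39, SE 0.12, limma adjusted p = 0.00143). Every 1 h mouse was above all sham mice. The collagen genes Col1a1, Col1a2 and Col3a1 were the 3 lower at 6 h, and Col1a1 went from a mean of 16.3 FPKM in sham mice to 10.4 after 6 h and 949 after 72 h. At 72 h the largest changes were in Postn, which encodes the matricellular protein periostin, with means of 7.09 and 663 FPKM (6.37, SE 0.12, adjusted p = 8.73e-09), Col1a1, and the collagen cross-linking enzyme Lox, with 1.79 and 133 FPKM (5.59, SE 0.14, adjusted p = 1.77e-08). The list holds Col1a1, Col1a2 and Col3a1, which are also among the fibroblast markers.

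Of 8 BMP-induced genes 7 were tested. Id1, Id2 and Id3, which encode inhibitors of helix-loop-helix factors, were higher at 6 h while the other 4 were not called. This was 42.9% higher beside 11.6% of all genes. The calls of these genes were not examined with a mouse left out or with another scaling. At 24 h 1 was higher, and at 72 h 2 were higher, 1 lower and 4 not called. The share called was 14.3% at 24 h and 42.9% at 72 h, below the 37.6% and 77.3% of all genes. Id2 had means of 7.61 FPKM in sham mice, 18.9 at 6 h (1.19, SE 0.25, adjusted p = 0.0141) and 48.7 at 72 h (2.55, SE 0.15, adjusted p = 1.16e-06). Id3 was at 57, 56.3 and 68.8 FPKM in sham mice, 82.8, 94.4 and 82.5 after 6 h (0.51, SE 0.10, limma adjusted p = 0.012) and 108, 121 and 119 after 72 h (0.92, SE 0.092, adjusted p = 2.22e-05). Id1 was at 49.9, 52.3 and 65.2 FPKM in sham mice, 71.3, 81.3 and 69.2 after 6 h (0.41, SE 0.12, adjusted p = 0.0396) and 38.3, 35.7 and 31.7 after 72 h (-0.64, SE 0.11, adjusted p = 0.000712). All 6 h mice were above and all 72 h mice below sham in Id1, while Id3 was above sham at both times. Between 72 h and 6 h Id1 differed by -1.05 (SE 0.11, adjusted p = 6.83e-05).

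Marker genes of several cell types changed in level over the same hours. Summed fibroblast markers (7 of 7 measured) were at 253 to 284 FPKM in sham mice, 185 to 252 after 6 h, 297 to 404 after 24 h and 3169 to 4259 after 72 h. Summed macrophage and monocyte markers (7 of 7) were at 263 to 304, 214 to 296, 595 to 768 and 4098 to 5432, and neutrophil markers (5 of 5) at 2.32 to 4.99, 116 to 997, 42.6 to 965 and 49.6 to 60.2. Cardiomyocyte markers (6 of 6) were at 39561 to 41295 FPKM in sham mice, 33785 to 40476 after 6 h, 26953 to 34230 after 24 h and 16694 to 20023 after 72 h. Endothelial markers (6 of 6) were at 515 to 568 FPKM in sham mice and 448 to 557 after 72 h, with medians of 534 and 466. These ranges overlapped, and at 72 h 3 of the markers were called lower and 3 were not called. At 72 h the 7 fibroblast and 7 macrophage markers were all called higher, and the 6 cardiomyocyte markers all lower. Earlier, markers of 1 cell type could differ in direction, which a sum does not show. At 6 h the macrophage and monocyte markers Ccr2 and Fcgr1 were called higher, Csf1r lower and 4 were not called. At 24 h the fibroblast markers Col3a1, Col1a1 and Pdgfra were called higher, Dcn lower and 3 were not called. The part of these shifts in the levels of the pathway genes was not tested, and in such bulk tissue a change in the number of cells of a type and a change in RNA per cell cannot be told apart.

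The 13 members below 1 FPKM included Acvr2b, Bmp5 and Gdf1, whose highest values in any mouse were 0.778, 0.703 and 0.64 FPKM. The tested members nearest the limit were Smad9 and Bmp7, with highest values of 1.25 and 1.29 FPKM. Bmp3, Bmp8a, Bmp8b, Bmp15, Bmpr1b, Gdf2, Gdf5, Gdf7, Gdf9 and Acvr1c did not exceed 0.377 FPKM in any mouse. Since the depth in reads is not given by FPKM, no limit of detection can be set for them.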

How the data were processed

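PolyA RNA of 18 mouse hearts was sequenced. By the study's methods and the submitters' processing notes, the authors trimmed reads with cutadapt 1.18, aligned them to mm10 with HISAT2 2.1.0 and estimated FPKM with StringTie 1.3.4d. The annotation and the use of strand are not given in the sources used here. The deposited values are FPKM per gene symbol, and the table holds no read counts. FPKM of a mouse summed to 542418 to 600467, and the steps of low values gave depths of 0.812 to 1.32 relative to the first sham mouse. Absolute depth is unknown, and the number of mice limits the precision.

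Columns were matched to mice by the group and replicate in the sample titles. Symbols with at least 1 FPKM in at least 1 mouse were kept, log2(FPKM + 1) was taken, and each pair of groups (3 against 3 mice) was fitted on its own with limma 3.58.1 in R 4.3.3 (eBayes with trend, two-sided, Benjamini-Hochberg adjustment over all genes tested, threshold 0.05). Genes with equal values in all mice compared were not tested, which removed Bmp10 where no 6 h mice entered. The authors' own Cufflinks test needs reads, so limma stands in for it. An exact permutation test of 3 against 3 mice cannot go below p = 0.1 and was not used. The fit was tested on simulated data.

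The fit was repeated with a pseudocount of 0.1, without a filter and with a filter on mean FPKM, with FPKM sums made equal, with quantile normalization or median-of-ratios scaling, with the 18 mice fitted together, with a replicate block, without the trend and without each mouse in turn. Of single genes, only the pathway genes were followed through these repeats. The pathway genes, lists and named genes were chosen with earlier results of these data known. Given in full were 23 members picked for their role and, in each comparison, the up to 5 largest rises and 3 largest falls among called members, and from each list of other genes the largest rises and falls at 72 h. Fst, Fstl3, Ctgf, Col1a2, Col3a1, the cell type markers named singly and the genes overlapping members were named after their values were seen. Some genes of these lists are counted but not reported here by name. Gene spans are from GENCODE on mm10, and promoters from RefSeq (GRCm38.p6), which held 40 of the 55 members. By GENCODE, 15 tested members overlap a gene on the other strand and 7 on the same strand.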

Additional observations from a re-analysis of the deposited data

Results flagged for a closer look

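Bmp4 was higher than sham in all 6 h mice and called lower at 72 h, and the direct comparison of 72 h with 6 h gave a log2 fold change of -1.45 (SE 0.16, limma adjusted p = 0.000106). Its 72 h value against sham (-0.26) rested on groups that overlapped by 1 mouse, and that call was lost without sham mouse 2 or 3 or 72 h mouse 2 or 3 and with no filter, equal FPKM sums or all 18 mice in one fit. Tgfb3 did the reverse, below sham in all 6 h mice and above it in all 72 h mice, and 72 h against 6 h gave 2.78 (SE 0.11, adjusted p = 6.68e-07). Both were singled out because their change from sham differed in sign between these times and the difference passed its own test.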

How the results depend on the processing

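Both the scaling of the table and single mice bore on the calls. At 72 h against sham, median-of-ratios scaling and quantile normalization turned Acvr1b (-0.22 and -0.31), the former turned Acvrl1 (-0.06) and the latter Smad4 (-0.03), Smad6 (-0.36) and Tgfbrap1 (-0.09). Between 72 h and 6 h, median-of-ratios scaling turned Acvrl1 (-0.06) and Tgfbrap1 (-0.10), and quantile normalization turned Tgfbrap1 (-0.17) and Bmpr1a (-0.33). With equal FPKM sums 5 members were lower at 72 h, beside 2897 of 13329 genes tested. With all 18 mice in one fit 5 members were lower at 6 h, beside 2777 of 13321 genes. Between 72 h and 24 h 5 were lower with median-of-ratios scaling (2693 of 13330 genes), quantile normalization (3345 of 13329) or all 18 mice (2443 of 13330). Between 72 h and 6 h 10 were lower with median-of-ratios scaling, beside 4045 of 13331 genes. Quantile normalization gave 13 higher and 15 lower between 72 h and 6 h, beside 3840 and 4578 of 13330 genes. The single call at 1 h, Smad7, gave 0 with no filter, with all 18 mice, without trend and with the replicate block. At 6 h calls were lost for Inhba with no filter, for Bmp2 with all 18 mice and for Bmp2, Bmpr2 and Ltbp1 with the replicate block. At 24 h Bmp2, Inhba and Smad1 were lost with no filter and Bmp2 and Smad1 with the block. At 72 h against sham, Acvrl1, Bmp4, Bmp7 and Tgfbr3l were lost with no filter, Acvr2a, Bmp4, Bmp7, Ltbp1 and Tgfbr3l with equal FPKM sums, Acvrl1 and Bmp4 with all 18 mice, Bmp4 with the block and Tgfbr3l with a pseudocount of 0.1. The cause was not tested.

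With single mice left out, the numbers higher and lower were 0 to 0 and 0 to 0 (10 min), 0 to 1 and 0 to 0 (1 h), 9 to 17 and 2 to 4 (6 h), 6 to 15 and 1 to 6 (24 h) and 25 to 27 and 6 to 9 (72 h). Between 72 h and 24 h they were 11 to 20 and 0 to 2, and between 72 h and 6 h 18 to 20 and 6 to 8. Leaving out a mouse leaves fewer samples and so less power. The share of all genes called was not taken for these fits, so the ranges cannot be set against all genes.

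The sample titles give replicate numbers without saying what they stand for. Of 15 same-numbered pairs with sham none had deviations correlated above 0.1 (r from -0.259 to 0.0822), and in 3 the own number correlated best. Ligation groups were not compared with each other in this way, so a batch shared among them would not be seen. With the replicate block the counts higher and lower were 12 and 2 (6 h), 12 and 5 (24 h), 26 and 9 (72 h), 17 and 2 between 72 h and 24 h and 19 and 7 between 72 h and 6 h. Over all genes the block gave 1262 higher and 1577 lower of 13321 tested at 6 h. At 24 h it gave 2971 and 1211 of 13327, and at 72 h 7024 and 3191 of 13329. Between 72 h and 24 h it gave 3803 and 1702 of 13330, and between 72 h and 6 h 6133 and 1954 of 13331.

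The FPKM values come without read counts, so their counting error could not be estimated. The precision given rests on the spread of 3 mice per group.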
